A study of Homo sapiens with 6 samples.

Results

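Antisense long noncoding RNA (lncRNA) genes are transcribed from the strand opposite to another gene and carry that gene's symbol followed by -AS and a number. The 199 genes described here are rows of the GRCh38 gene table with the biotype lncRNA, such a symbol and an estimated read count of at least 30 in all 6 libraries. They were thus chosen by measured values, the counts of both groups, and the floor itself is no result. They were taken from 1357 lncRNA rows with such a symbol among 46427 genes, after 4 rows antisense to WWTR1 or HIF1A had been left out. Of the remaining 1353 rows, 743 had at least 1 count and 401 passed the filter of the differential test, as did all 199. Each antisense gene was paired with the gene named by the stem of its symbol, its partner, and 197 of the 199 stems were found in the table.

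All libraries came from MDA-MB-231, an established human cell line derived from a metastatic triple-negative breast cancer, labelled as wild type. The cells were transfected with control-siRNA (3 libraries) or with TAZ-siRNA, directed at WWTR1, the gene that encodes the Hippo pathway co-activator TAZ (3 libraries), and poly(A) RNA was sequenced. No group used an untransfected culture, and all libraries share 1 cell line. The study asked what changes when TAZ is lost from a migrating cancer cell. Per the study's methods each group held 3 cell preparations, so p-values measure the spread between these preparations of 1 cell line.

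An antisense transcript may start next to its partner and run away from it, start within the partner, or cross the partner's end. Members of this class are known to act on the chromatin of their own locus, on partner mRNA by base pairing, or elsewhere as sponges for microRNAs and proteins, and for most of them no function is established. TAZ itself has no DNA-binding domain and acts with TEAD transcription factors, often beside AP-1.

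The knockdown was seen in every library. WWTR1 lay at 192, 190 and 190 CPM (read counts after each library was scaled to a shared size) with control-siRNA and at 17.3, 17.0 and 15.1 CPM with TAZ-siRNA, which is 8.64% of the control mean (log2 fold change -3.53, SE 0.0613, edgeR adjusted p = 2.5e-10). Library totals were 48307548 to 71749634 estimated counts, so that 3 counts corresponded to 0.0418 to 0.0621 CPM. Keratins KRT8 and KRT18 and the mesenchymal-like markers VIM, CD44, EGFR and AXL had at least 18788 counts in each library. KRT19 had 3142 to 5657 counts. The luminal receptors ESR1 and PGR had at most 6 counts and the leukocyte marker PTPRC had 0, while GATA3 (332 to 593 counts) and the endothelial marker PECAM1 (246 to 416 counts) were detected. Replicate numbers here follow the sample descriptions, which match the column names of the gene table. The sample titles number the same libraries differently. Replicate 3 stood apart from the other libraries in both groups. The chi-square per degree of freedom between TAZ-siRNA replicate 3 and replicates 1 and 2 was 27.6 and 38.2, against 10.8 between replicates 1 and 2. For control-siRNA these values were 20.3 and 18.5, against 6.38. The number of genes called was 3749 with all libraries. It was 2262, 1937 and 2115 without control-siRNA replicate 1, 2 and 3, and 2046, 2687 and 5928 without TAZ-siRNA replicate 1, 2 and 3. By this number only TAZ-siRNA replicate 3 stood apart.

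The promoter stretches of 4 antisense genes are shown because they stand for the kinds of pair described in the results: a pair that fell together across 1 shared stretch (UBA6-AS1), an antisense gene that fell while its partner did not pass the test (VLDLR-AS1), one that fell while its partner rose (EPB41L4A-AS1), and one that rose with its partner (PROX1-AS1). All are from RefSeq on the GRCh38.p14 assembly and are written 5′ to 3′ on the strand of the antisense gene. For UBA6-AS1 (chr4:67701126-67701307, plus strand) capitals mark the 122 bases between the start of UBA6, on the minus strand, and the start of UBA6-AS1, with 30 bases of either gene beside them. For VLDLR-AS1 (chr9:2622324-2622623, minus strand), EPB41L4A-AS1 (chr5:112160276-112160575, plus strand) and PROX1-AS1 (chr1:213986104-213986403, minus strand) the 250 bases before the start are in lower case and capitals mark the first 50 transcribed bases.
UBA6-AS1: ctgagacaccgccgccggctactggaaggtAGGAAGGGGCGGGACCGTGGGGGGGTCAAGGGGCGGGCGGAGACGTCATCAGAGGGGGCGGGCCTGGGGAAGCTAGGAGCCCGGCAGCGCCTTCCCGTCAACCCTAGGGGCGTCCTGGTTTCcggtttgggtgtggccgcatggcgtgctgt
VLDLR-AS1: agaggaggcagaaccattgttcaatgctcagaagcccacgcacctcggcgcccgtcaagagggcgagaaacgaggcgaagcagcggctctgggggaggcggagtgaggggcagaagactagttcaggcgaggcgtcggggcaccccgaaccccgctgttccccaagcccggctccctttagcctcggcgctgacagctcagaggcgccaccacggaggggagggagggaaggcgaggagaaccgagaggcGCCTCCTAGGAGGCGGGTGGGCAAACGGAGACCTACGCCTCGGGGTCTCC
EPB41L4A-AS1: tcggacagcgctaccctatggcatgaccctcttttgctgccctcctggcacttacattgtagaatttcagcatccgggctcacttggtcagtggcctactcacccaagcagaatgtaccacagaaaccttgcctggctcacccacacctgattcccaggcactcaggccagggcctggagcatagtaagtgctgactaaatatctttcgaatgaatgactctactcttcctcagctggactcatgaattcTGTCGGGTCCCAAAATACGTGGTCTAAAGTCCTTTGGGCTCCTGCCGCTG
PROX1-AS1: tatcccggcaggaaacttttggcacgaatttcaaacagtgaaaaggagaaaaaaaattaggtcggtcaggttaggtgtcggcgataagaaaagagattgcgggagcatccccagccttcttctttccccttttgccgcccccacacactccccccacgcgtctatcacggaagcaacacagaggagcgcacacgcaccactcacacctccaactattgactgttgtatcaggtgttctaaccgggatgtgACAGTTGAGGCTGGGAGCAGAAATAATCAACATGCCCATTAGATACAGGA

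The antisense genes were weakly expressed. Their mean count over the 6 libraries ran from 37.7 to 7438 with a median of 120, and together they held 0.112 to 0.119% of all counts. Per length, the mean level ran from 0.0994 to 27.6 FPKM (fragments scaled for transcript length and library size) with a median of 1.06, against a median of 7.64 FPKM for the 179 tested partners. In 142 of 180 pairs with a tested partner the antisense gene had the lower FPKM, and in 38 it had the higher. The median antisense level was 17.1% of the partner's. Across the 180 pairs, Pearson r of the log levels was -0.0236, a description, since all pairs share the same 6 libraries.

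The highest level was that of FGD5-AS1 (27.6 FPKM, 5020 to 9038 counts), whose partner FGD5, a guanine nucleotide exchange factor of endothelial cells, was too low to be tested. THAP9-AS1 followed with 25.2 FPKM, EPB41L4A-AS1 with 22.4, TMEM132D-AS1 with 20.2, NUTM2A-AS1 with 13.7 and SLCO4A1-AS1 with 13.3. OIP5-AS1, the most counted member with 5531 to 9914 counts, reached 12.9 FPKM. The widest gap in the other direction belonged to VIM-AS1, with 2.22 FPKM beside 1530 FPKM of VIM, the gene of the intermediate filament vimentin. TTN-AS1 was at 1.79 FPKM although the giant muscle gene TTN was at 0.00782 FPKM. The plot of antisense and partner levels shows both sides of the line of equal FPKM.

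**Figure D1:**
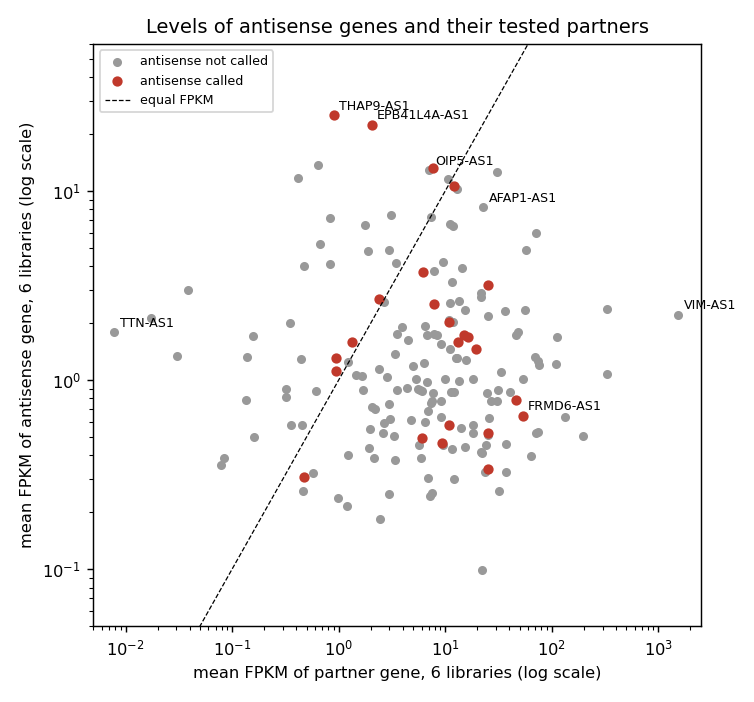
Mean FPKM over 6 libraries of each antisense gene (vertical axis) against its tested partner (horizontal axis), both on log scales, 1 point per pair. The dashed line marks equal levels, 142 of 180 pairs lie below it, and red points are antisense genes that passed the test between the groups.

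After TAZ knockdown, 26 of the 199 antisense genes (13.1%) passed the test, 8 of them higher (4.02%) and 18 lower (9.05%). The largest rises were those of SH3PXD2A-AS1 and UCKL1-AS1, both to more than 200% of control, and the largest falls those of MNX1-AS1, VLDLR-AS1 and PDCD4-AS1, to 52.4, 53.3 and 57.7% of control. A call here is an adjusted p under 0.05 in edgeR's quasi-likelihood test, adjusted over all 16966 genes tested. Over all these genes 22.1% were called, 11.9% higher and 10.2% lower. Among the 1661 genes with a mean count like that of the middle 50% of the antisense genes (75.2 to 240), 15.1% were called, and 13 of the 99 antisense genes in that range were. In bulk RNA, fewer cells that express a gene and less of its RNA per cell cannot be told apart.

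The groups did not overlap in 62 antisense genes (31.2%), 24 higher and 38 lower, against 39.6% of all genes tested (20% higher, 19.6% lower). All 26 called genes were among the 62. At an unadjusted p under 0.05 there were 49 antisense genes (24.6%), against 35.8% of all genes, and at an adjusted p under 0.01 there were 5, against 10.1% of all genes. The log2 fold change was negative in 118 antisense genes and positive in 81, with a median of -0.0845, while over all genes it was -0.0054. Of the called genes, 13 changed by more than 1.5-fold and 2 by more than 2-fold. Summed over all 199 genes the level was 1170, 1190 and 1160 CPM with control-siRNA and 1150, 1150 and 1140 CPM with TAZ-siRNA.

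Other classes with the same floor of 30 counts are given for comparison, with no test between them. Of 143 genes with a LINC symbol 31 were called (21.7%), with a median log2 fold change of -0.0758. Of 32 divergent transcripts with a -DT symbol 6 were called (18.8%, median -0.20), and of the 550 remaining lncRNA genes 77 were called (14%, median -0.0745). Of 12323 protein-coding genes 27.3% were called, with a median of 0.0028. Medians below 0 were therefore found in each of these lncRNA classes.

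Because the floor asked for 30 counts in every library, a gene that fell close to 0 could not be among the 199. Just inside it lay MNX1-AS1, CAVIN2-AS1, SRP54-AS1 and ZNF436-AS1, each with a lowest count of 30, and just outside ZNF213-AS1, SNRK-AS1 and TDRKH-AS1, each with a lowest count of 29.

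SH3PXD2A-AS1 rose most. It lies at chr10:103746779-103755409 inside SH3PXD2A, which encodes the scaffold TKS5 of invadopodia, the matrix-degrading protrusions of invasive cells. Its counts were 44, 39 and 32 with control-siRNA and 95, 59 and 105 with TAZ-siRNA, or 0.66, 0.627 and 0.659 CPM against 1.3, 1.2 and 1.88 CPM. The 3 control libraries lay close together and each knockdown library was well above them (225% of control, log2 fold change 1.17, SE 0.226, edgeR adjusted p = 0.0051). SH3PXD2A itself rose to 139% of control (log2 0.48, SE 0.123, edgeR adjusted p = 0.03), with knockdown libraries at 137, 151 and 107 CPM over control libraries at 101, 95.5 and 86.5 CPM. The call of SH3PXD2A was lost without control-siRNA replicate 2 or 3 (edgeR adjusted p = 0.069 and 0.08) or TAZ-siRNA replicate 1 (0.097), while that of SH3PXD2A-AS1 held.

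UCKL1-AS1 rose to 204% of control (log2 1.02, SE 0.194, edgeR adjusted p = 0.0047). Its counts were 73, 51 and 38 with control-siRNA and 150, 83 and 98 with TAZ-siRNA. On the CPM scale the lowest knockdown library (1.68) was above the highest control library (1.09). Its partner UCKL1, a uridine-cytidine kinase-like gene, gave a log2 fold change of -0.11 (SE 0.0502, edgeR adjusted p = 0.14), with 49.9 to 51.2 CPM after knockdown and 52.7 to 56.2 CPM in controls.

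The other rises were smaller. SH3BP5-AS1 had 173, 177 and 117 counts in controls and 432, 217 and 187 after knockdown (log2 0.80, SE 0.191, edgeR adjusted p = 0.014). TAZ-siRNA replicate 1 was its highest library, and the groups did not overlap. PITRM1-AS1, which overlaps a mitochondrial peptidase gene, rose by a log2 of 0.71 (SE 0.168), and neither SH3BP5 (0.0955) nor PITRM1 (-0.0931) passed the test. The call of SH3BP5-AS1 was lost without control-siRNA replicate 1 or 3 or TAZ-siRNA replicate 1 (edgeR adjusted p = 0.057, 0.062 and 0.061), and that of PITRM1-AS1 without control-siRNA replicate 2 or TAZ-siRNA replicate 1 (0.055 in each). PROX1-AS1, FBXL19-AS1, FEZF1-AS1 and SLCO4A1-AS1 rose together with their partners and are described with them.

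The largest fall was that of MNX1-AS1, next to the homeobox gene MNX1 and with a start 194 bases from it. Its counts were 92, 118 and 78 with control-siRNA and 65, 30 and 59 with TAZ-siRNA, or 1.38, 1.9 and 1.61 CPM against 0.891, 0.608 and 1.06 CPM. The groups did not overlap (log2 -0.92, SE 0.23, edgeR adjusted p = 0.017), and the call was lost without control-siRNA replicate 2 or 3 or TAZ-siRNA replicate 1 (0.08, 0.051 and 0.055). For MNX1 the groups overlapped, with 2.01, 2.3 and 1.85 CPM against 2.8, 2.68 and 1.95 CPM (log2 0.27, SE 0.174, edgeR adjusted p = 0.30).

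VLDLR-AS1, whose start lies inside the gene of the very low density lipoprotein receptor, had 3.42, 3.36 and 3.05 CPM in controls and 1.51, 1.26 and 2.47 CPM after knockdown. TAZ-siRNA replicate 3 was nearest to the controls (log2 -0.91, SE 0.219, edgeR adjusted p = 0.015). The VLDLR gene was nearly level, at 63.4 ± 3.07 and 65.0 ± 1.14 CPM (SD, n = 3; log2 0.0341, SE 0.052). PDCD4-AS1, beside the gene of a translation inhibitor, had 2.32, 1.9 and 2.57 CPM against 1.22, 1.03 and 1.67 CPM (log2 -0.79, SE 0.205, edgeR adjusted p = 0.02). PDCD4 was at 180 ± 0.847 and 178 ± 12.4 CPM (SD, n = 3). The call of VLDLR-AS1 was lost without control-siRNA replicate 1 or 2 or TAZ-siRNA replicate 1 (edgeR adjusted p = 0.06, 0.059 and 0.074). That of PDCD4-AS1 was lost without control-siRNA replicate 1 or 3 or TAZ-siRNA replicate 1 or 2 (0.073, 0.085, 0.085 and 0.069).

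ZEB1-AS1 starts inside ZEB1, the gene of a repressor that drives epithelial-mesenchymal transition (EMT), and runs out of its head at chr10:31307717-31320447. Its counts were 327, 359 and 228 with control-siRNA and 229, 176 and 162 with TAZ-siRNA, or 4.9, 5.77 and 4.69 CPM against 3.14, 3.57 and 2.9 CPM. Every knockdown library lay below every control library (62.5% of control, log2 -0.68, SE 0.128, edgeR adjusted p = 0.0045). ZEB1 mRNA was at 85.3, 87.2 and 88.6 CPM in controls and 93.7, 83.7 and 95.7 CPM after knockdown, with overlapping groups (log2 0.0653, SE 0.0569, edgeR adjusted p = 0.45). The antisense to ZEB1 log2 ratio differed by -0.74 between the groups (exact permutation test, p = 0.1, the smallest that 3 against 3 libraries can give). ZEB1-AS1 was named for its fall without overlap and ZEB1 changed little, so this p is a description. Of 178 pairs for which this ratio was computed, it separated the groups in 55.

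THAP9-AS1 was the most abundant antisense gene that fell. It had 71.2, 72.8 and 66.6 CPM with control-siRNA and 56.1, 53.7 and 60.9 CPM with TAZ-siRNA, and the groups did not overlap (81% of control, log2 -0.30, SE 0.0605, edgeR adjusted p = 0.0059). Its partner THAP9, derived from a DNA transposase, was at 0.897 FPKM and gave a log2 of -0.13 (SE 0.126).

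Of the remaining falls, TAF1A-AS1 (log2 -0.66, SE 0.208) is paired with a subunit of the RNA polymerase I factor SL1, and EXOC3-AS1 (log2 -0.61, SE 0.162) with a subunit of the exocyst. SBF2-AS1 (log2 -0.43, SE 0.107) overlaps the tail of a myotubularin-related gene, ZNF674-AS1 (log2 -0.46, SE 0.113) faces a zinc finger gene, and EMC3-AS1 (log2 -0.40, SE 0.107) lies in the gene of a subunit of the endoplasmic reticulum membrane complex. None of these 5 partners passed the test, with log2 fold changes from -0.19 (TAF1A) to 0.14 (SBF2). ASB16-AS1 (log2 -0.61, SE 0.162) and DBH-AS1 (log2 -0.51, SE 0.143) fell beside partners with at most 9 counts in any library, which were not tested. Of these 7 antisense calls, those of TAF1A-AS1 and ASB16-AS1 held in 2 and the other 5 in 3 of the 6 fits that leave out 1 library. The plot of called genes by library gives the value of each of the 26 in every library.

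**Figure D2:**
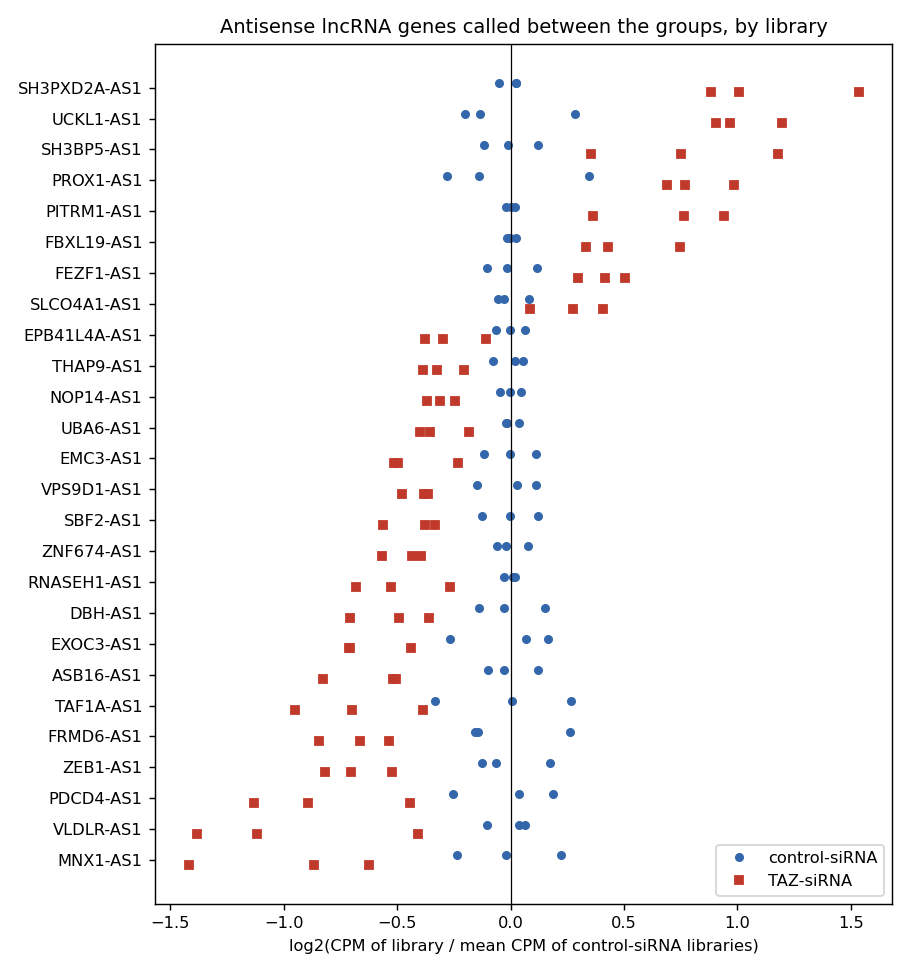
The 26 called antisense genes (rows) in each library, as log2 of the library's CPM over the mean CPM of the control-siRNA libraries (horizontal axis; circles, control-siRNA; squares, TAZ-siRNA; 3 libraries each). In every row the squares lie to 1 side of the circles, 8 genes to the right and 18 to the left.

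Calls depended on single libraries. Leaving out control-siRNA replicate 1, 2 or 3 gave 14, 8 and 11 called antisense genes, and leaving out TAZ-siRNA replicate 1, 2 or 3 gave 9, 13 and 39. The calls of SH3PXD2A-AS1, UCKL1-AS1, ZEB1-AS1 and THAP9-AS1 held in all 6 of these fits. UBA6-AS1 lost its call without TAZ-siRNA replicate 1 (log2 -0.26, edgeR adjusted p = 0.052) and NOP14-AS1 without control-siRNA replicate 2 (log2 -0.28, edgeR adjusted p = 0.063). The other 20 called genes held in 1 to 4 of the 6 fits, and all 26 kept their direction in each.

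Of the 25 antisense RNAs on a list of members studied in cancer or cell biology, 16 were among the 199. Of these 16, 3 were called, all lower, against 13.1% called of the 199 and 22.1% of all genes tested. They were MNX1-AS1 and SBF2-AS1, each called in 3 of the 6 fits without 1 library, and ZEB1-AS1, called in all 6. Among the others were OIP5-AS1, a cytoplasmic RNA known to bind microRNAs and HuR (log2 0.11, SE 0.0624), FGD5-AS1 (log2 0.16, SE 0.0565, edgeR adjusted p = 0.071), AFAP1-AS1 (log2 -0.14, SE 0.0502, edgeR adjusted p = 0.073), NNT-AS1 (log2 0.0896, SE 0.0769), TTN-AS1 (log2 -0.12, SE 0.0927) and LOXL1-AS1 (log2 0.24, SE 0.0975, edgeR adjusted p = 0.10). The SE was 0.05 to 0.10 for these well counted genes and larger for TMPO-AS1 (log2 0.17, SE 0.242), KTN1-AS1 (log2 -0.10, SE 0.176), MCM3AP-AS1 (log2 0.036, SE 0.172), ADAMTS9-AS2 (log2 0.069, SE 0.17), SPRY4-AS1 (log2 -0.26, SE 0.165), FOXD2-AS1 (log2 0.15, SE 0.153) and VIM-AS1 (log2 -0.0362, SE 0.146). The direction of VIM-AS1, KTN1-AS1, TMPO-AS1, MCM3AP-AS1 and ADAMTS9-AS2 turned when 1 library was left out. The other 9 RNAs of the list were below the floor.

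Of a list of 22 YAP/TAZ target genes, only RBMS3 was the partner of 1 of the 199 genes. RBMS3-AS3 had 73, 89 and 53 counts in controls and 71, 51 and 67 counts after knockdown (log2 -0.18, SE 0.199), and RBMS3 gave -0.23 (SE 0.0738, edgeR adjusted p = 0.05013). Neither was called.

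Of 180 pairs with a tested partner, the partner was called in 44 (24.4%), higher in 28 and lower in 16. This share is near that of all genes tested (22.1%) and of protein-coding genes with the same count floor (27.3%). Both genes were called in 11 pairs, in the same direction in 9 and in opposite directions in 2. The antisense gene was called in 11 of the 44 pairs with a called partner (25%) and in 13 of the 136 pairs with an uncalled partner (9.56%). Across all pairs the changes had the same sign in 98 (54.4%), and the correlation of the changes was near 0 (Pearson r = 0.101, Spearman rho = 0.1, n = 180 pairs, as a description). Pearson r was 0.131 over 130 pairs whose genomic spans overlap and -0.0776 over 47 pairs whose spans do not. The libraries were made with a stranded kit, but whether counting used the strand was not stated, so reads of overlapping genes of a pair cannot be told apart with certainty. How far shared reads enter the values of such pairs was not tested.

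**Figure D3:**
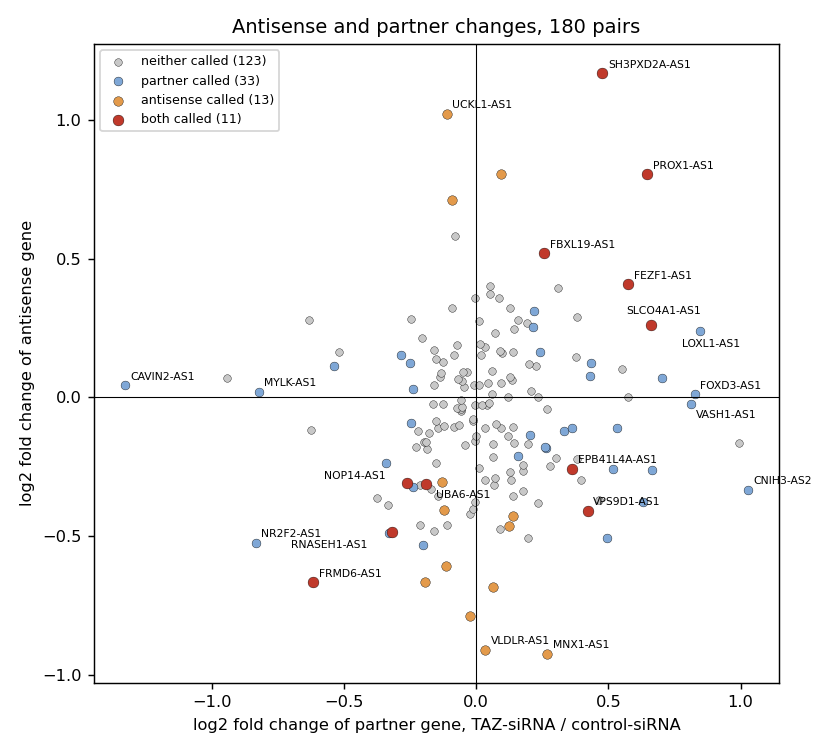
Log2 fold change (TAZ-siRNA over control-siRNA) of each antisense gene (vertical axis) against that of its partner (horizontal axis), 180 pairs. In 123 pairs (grey) neither gene was called, in 33 (blue) the partner alone, in 13 (orange) the antisense gene alone, and in 11 (red) both, of which 9 lie in the quadrants of equal sign.

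In 4 pairs both genes fell. FRMD6 encodes a FERM domain protein that acts upstream of the Hippo kinases, and FRMD6-AS1 lies inside it at chr14:51649516-51651744. FRMD6 fell from 367, 351 and 328 CPM to 231, 224 and 227 CPM (log2 -0.62, SE 0.0563, edgeR adjusted p = 0.00011). FRMD6-AS1 fell from 1.78, 1.8 and 2.39 CPM to 1.37, 1.26 and 1.11 CPM (log2 -0.66, SE 0.182, edgeR adjusted p = 0.026), and both genes of the pair were without overlap between the groups. Its call was lost without control-siRNA replicate 2 or 3 (edgeR adjusted p = 0.054 and 0.11) or TAZ-siRNA replicate 1 or 2 (0.054 and 0.065). The mean antisense count was far below that of FRMD6, and the spans overlap along the whole of FRMD6-AS1.

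UBA6-AS1 and UBA6, which encodes a ubiquitin-activating enzyme, diverge from the 122-base stretch printed above and their spans do not overlap. UBA6-AS1 had 29.9, 30 and 31.1 CPM in controls and 23, 23.7 and 26.7 CPM after knockdown (log2 -0.31, SE 0.067, edgeR adjusted p = 0.0086). UBA6 had 139, 133 and 127 CPM against 123, 111 and 116 CPM (log2 -0.19, SE 0.0539, edgeR adjusted p = 0.031), and neither gene overlapped between the groups. The call of UBA6 was lost without control-siRNA replicate 1, 2 or 3 (edgeR adjusted p = 0.14, 0.11 and 0.052) or TAZ-siRNA replicate 2 (0.10), and that of UBA6-AS1 without TAZ-siRNA replicate 1 (0.052). RNASEH1-AS1 and RNASEH1, the gene of the nuclease that removes RNA from RNA-DNA hybrids, also diverge, with starts 19 bases apart. RNASEH1-AS1 had 6.27, 6.11 and 6.3 CPM against 3.88, 4.32 and 5.17 CPM (log2 -0.48, SE 0.119), and RNASEH1 gave -0.32 (SE 0.064). The call of RNASEH1-AS1 held only without TAZ-siRNA replicate 3 (edgeR adjusted p = 0.052 to 0.076 in the other 5 fits), while that of RNASEH1 held in all 6. These were the 2 pairs with both genes called among the 47 whose spans do not overlap. In the fourth pair, NOP14-AS1 (log2 -0.31, SE 0.0701) overlaps the tail of NOP14 (log2 -0.26, SE 0.0451), a gene of small ribosomal subunit assembly.

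In 5 pairs both genes rose. PROX1-AS1, a long gene that starts within the homeobox gene PROX1, had 72, 48 and 34 counts in controls and 100, 83 and 81 counts after knockdown, or 1.08, 0.771 and 0.7 CPM against 1.37, 1.68 and 1.45 CPM (log2 0.80, SE 0.214, edgeR adjusted p = 0.023). PROX1 had 4.15, 3.13 and 3.21 CPM against 5.31, 5.92 and 5.28 CPM (log2 0.65, SE 0.132, edgeR adjusted p = 0.0065). The groups did not overlap in either, and control-siRNA replicate 1 was the highest control library for both. The antisense call was lost without control-siRNA replicate 2 or 3 (edgeR adjusted p = 0.088 and 0.082) or TAZ-siRNA replicate 1 or 2 (0.068 for replicate 2, and a value that rounds to 0.05 for replicate 1).

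SLCO4A1-AS1 lies inside SLCO4A1, the gene of an organic anion transporter, and rose from 18.5, 18.8 and 20.3 CPM to 23.3, 25.5 and 20.4 CPM (log2 0.26, SE 0.0844, edgeR adjusted p = 0.048). TAZ-siRNA replicate 3 lay next to the highest control library. SLCO4A1 rose more, from 26.0 ± 1.75 to 41.2 ± 4.71 CPM (SD, n = 3; log2 0.66, SE 0.0853, edgeR adjusted p = 0.00061). FEZF1-AS1 (log2 0.41, SE 0.118) rose with the zinc finger gene FEZF1 (log2 0.57, SE 0.171), and FBXL19-AS1 (log2 0.52, SE 0.156) with the F-box gene FBXL19 (log2 0.26, SE 0.0657). The calls of SLCO4A1-AS1, FEZF1-AS1 and FBXL19-AS1 each held in 1 of the 6 fits without a library, the fit without TAZ-siRNA replicate 3, with log2 values over the 6 fits of 0.19 to 0.35, 0.36 to 0.47 and 0.38 to 0.61. The partner FEZF1 also held its call only without TAZ-siRNA replicate 3 (edgeR adjusted p = 0.083 to 0.15 in the other 5 fits). FBXL19 lost its call without control-siRNA replicate 1 or 2 or TAZ-siRNA replicate 1 or 2 (0.052, 0.10, 0.068 and 0.061), and SLCO4A1 held in all 6.

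In 2 pairs the antisense gene fell while the partner rose, and both lie inside their partners. VPS9D1-AS1 fell from 6.46, 6.11 and 5.39 CPM to 4.65, 4.3 and 4.6 CPM (log2 -0.41, SE 0.106, edgeR adjusted p = 0.021). VPS9D1, which carries a domain of Rab5-family exchange factors, rose from 6.31, 6.49 and 6.22 CPM to 8.64, 8.96 and 7.91 CPM (log2 0.42, SE 0.0884, edgeR adjusted p = 0.0074). The 2 genes were thus near equal in controls, and the antisense to partner log2 ratio differed by -0.83 between the groups. Neither gene overlapped between the groups and they moved in opposite directions, so their ratio had to separate the groups. Its p of 0.1 (exact permutation test, the smallest possible) was thus fixed by the choice of the pair and is a description. The antisense call was lost without control-siRNA replicate 1 or 2 (edgeR adjusted p = 0.092 and 0.081) or TAZ-siRNA replicate 1 or 2 (0.062 and 0.067).

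EPB41L4A-AS1 fell from 32.5, 31.2 and 34 CPM to 26.5, 25.1 and 30.2 CPM (log2 -0.26, SE 0.0741, edgeR adjusted p = 0.032). EPB41L4A, of the band 4.1 family that links membrane proteins to the cytoskeleton, rose from 9.6, 9.37 and 8.65 CPM to 12.3, 12.8 and 10.4 CPM (log2 0.36, SE 0.0945, edgeR adjusted p = 0.021). In both genes TAZ-siRNA replicate 3 was the knockdown library nearest to the controls, and the groups did not overlap. The log2 ratio differed by -0.62 (exact permutation test, p = 0.1, fixed in the same way by the choice of the pair). The antisense call held only without TAZ-siRNA replicate 3, with adjusted p of 0.099, 0.072 and 0.12 by edgeR without control-siRNA replicate 1, 2 and 3 and 0.13 and 0.11 without TAZ-siRNA replicate 1 and 2. EPB41L4A lost its call in the same 5 fits (edgeR adjusted p = 0.051, 0.067, 0.082, 0.083 and 0.069), so both sides of this pair were called only with all libraries or without TAZ-siRNA replicate 3. The start of EPB41L4A-AS1, in the sequence printed above, is 258751 bases from that of its partner.

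In 33 pairs the partner alone was called. The 6 with the largest partner change, and CEBPB-AS1 and OIP5-AS1, are given here after their values were seen. CAVIN2, a coat protein gene of caveolae, fell from 118, 105 and 102 CPM to 44.2, 50.1 and 35.2 CPM (log2 -1.33, SE 0.119, edgeR adjusted p = 0.00031). CAVIN2-AS1 had 65, 47 and 30 counts in controls and 65, 50 and 30 counts after knockdown, with overlapping groups (log2 0.0442, SE 0.281), an SE larger than the value itself. Without 1 library its value ran from -0.12 to 0.27.

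MYLK, which encodes myosin light chain kinase, fell by 0.82 on the log2 scale (SE 0.0884, edgeR adjusted p = 0.00024) beside MYLK-AS1 at 0.0201 (SE 0.296; -0.15 to 0.39 without 1 library). NR2F2, the gene of the nuclear receptor COUP-TFII, fell from 57.8, 51.7 and 49.1 CPM to 28.3, 31.4 and 29.3 CPM (log2 -0.83, SE 0.0715, edgeR adjusted p = 9.6e-05). NR2F2-AS1 had 1.08, 1.03 and 1.07 CPM against 0.535, 0.973 and 0.734 CPM, without overlap but with an adjusted p of 0.15 in edgeR (log2 -0.52, SE 0.242).

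Among partners that rose, CNIH3 (log2 1.03, SE 0.118), the matrix cross-linking enzyme gene LOXL1 (log2 0.85, SE 0.0887) and the forkhead gene FOXD3 (log2 0.83, SE 0.254) stood beside antisense values of -0.33 (CNIH3-AS2, SE 0.205), 0.24 (LOXL1-AS1, SE 0.0975) and 0.0119 (FOXD3-AS1, SE 0.158). The call of FOXD3 held only without TAZ-siRNA replicate 3, with log2 values down to 0.62 and edgeR adjusted p of 0.068 to 0.13 in the other 5 fits. CEBPB, a bZIP transcription factor gene, rose by 0.49 (SE 0.0883) while CEBPB-AS1 gave -0.50 (SE 0.183, edgeR adjusted p = 0.074). OIP5, a centromere gene, fell by 0.54 on the log2 scale (SE 0.0852, edgeR adjusted p = 0.0019) beside 0.11 for OIP5-AS1. The plot of 6 pairs by library shows pairs of each kind.

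**Figure D4:**
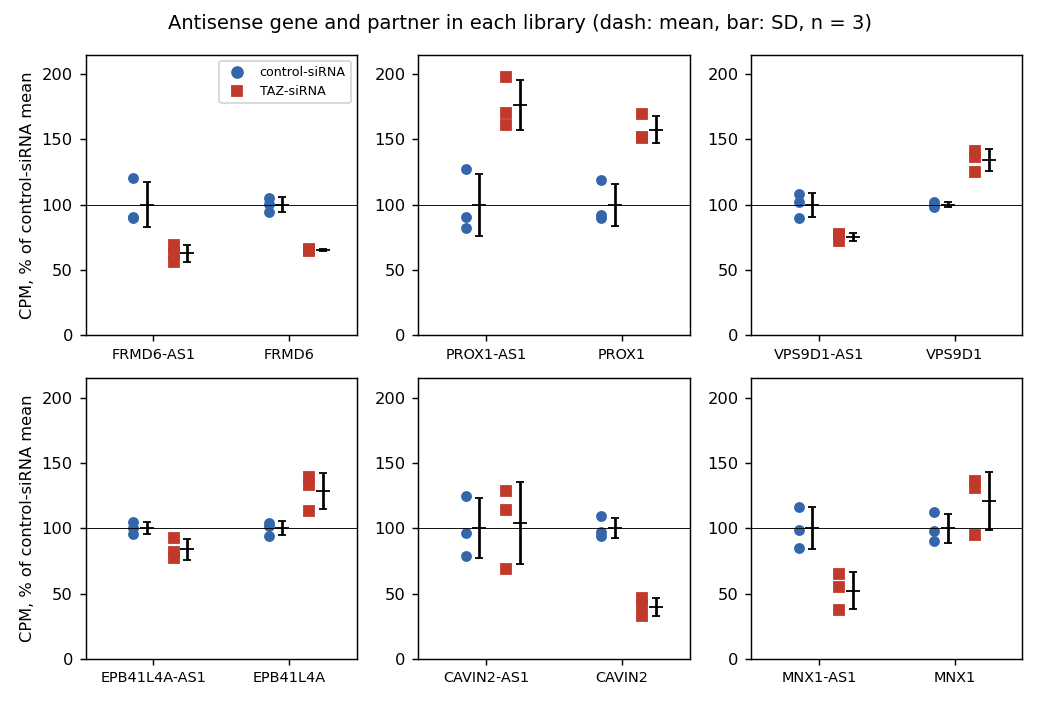
CPM in each library as percent of the control-siRNA mean (vertical axis) for 6 antisense genes and their partners; circles are control-siRNA and squares TAZ-siRNA libraries, and dashes with bars are mean ± SD (n = 3). FRMD6-AS1 fell and PROX1-AS1 rose with its partner, VPS9D1-AS1 and EPB41L4A-AS1 fell while theirs rose, CAVIN2-AS1 overlapped between groups while CAVIN2 fell to 39.9%, and MNX1-AS1 fell while MNX1 overlapped between groups.

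The place of the pair on the chromosome was read from the deposited transcript coordinates, for 194 pairs with a strand for both genes, and all 194 lay on opposite strands. In 66 pairs the heads overlapped, in 43 the genes lay head to head without overlap (median start distance 142 bases), in 38 the tails overlapped, in 33 the antisense gene lay inside its partner, in 9 around it, and in 5 the pair was tail to tail. The starts were within 1000 bases in 75 pairs.

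Head to head, 6 of 43 antisense genes were called and all 6 fell (MNX1-AS1, PDCD4-AS1, EXOC3-AS1, RNASEH1-AS1, ZNF674-AS1 and UBA6-AS1), with a median over the 43 of -0.158. This share of 14% is near the 13.1% over all 199 antisense genes and below the 22.1% over all genes tested, of which 10.2% were lower. Of the 6, only UBA6-AS1 held its call in more than 3 of the 6 fits that leave out 1 library. Of the partners of the 43 genes 11 were called (25.6%), 3 higher and 8 lower (median -0.0041). With overlapping heads, 7 of 66 antisense genes were called (10.6%), 3 higher and 4 lower (median -0.0323). Inside the partner, 9 of 33 were called (27.3%), 4 higher and 5 lower, and with overlapping tails 4 of 38 (10.5%). No test compares these classes, which differ in size and share the 6 libraries. Pearson r of the changes of both genes, as a description, was -0.0816 over the 43 head to head pairs, 0.202 over 63 pairs with overlapping heads, 0.193 over 29 pairs with the antisense gene inside, and 0.0253 over 33 with overlapping tails.

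**Figure D5:**
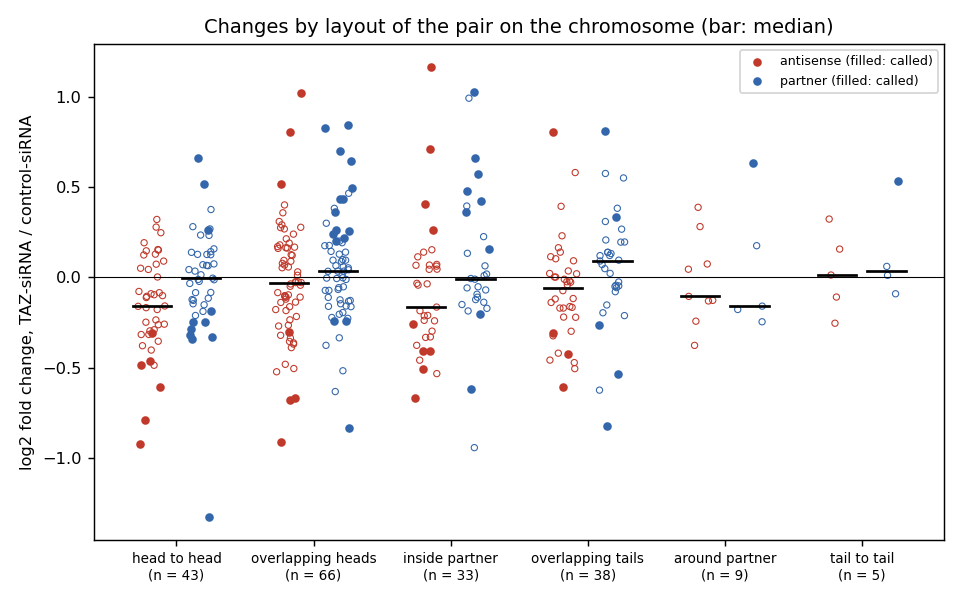
Log2 fold change (TAZ-siRNA over control-siRNA, vertical axis) of antisense genes (red) and tested partners (blue) by layout of the pair (horizontal axis; n is the number of antisense genes). Filled points were called and bars are medians. Head to head, 6 of 43 antisense genes were called (14%, against 13.1% of all 199), all below 0, with a median of -0.158.

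Promoters were read from RefSeq for 166 of the 199 antisense genes, from 250 bases before to 50 bases after the start. Their median GC content was 64.3%, against 58.3% over 27305 promoters. The letters GGAATG, the core bound by TEAD factors, were searched on both strands and found in 18 of the 166 (10.8%) and in 14% of all promoters. TGANTCA, the AP-1 motif, was found in 9 (5.42%) and in 7.76% of all promoters. Among called genes with a promoter, GGAATG was in 2 of 16 that fell (ZNF674-AS1 and EMC3-AS1) and 0 of 4 that rose, and TGANTCA in 0 of either. None of the 3 printed windows of 300 bases holds either motif. A match is a description of the letters and not a bound site.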

How the data were processed

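RNA-seq data of 6 libraries of MDA-MB-231 cells, 3 with control-siRNA and 3 with TAZ-siRNA, were grouped by the sample labels. Per the paper's methods, trimmed reads were aligned to GRCh38 by HISAT2 and assembled on a reference gene model by StringTie. The submitters' processing notes name Bowtie 0.12.2, and the build mm8 beside GRCh38. The coordinates used here are those of GRCh38. The estimated counts deposited by the authors are whole numbers and needed no rounding. The authors' FPKM values correct for length and library size. Their deposited TPM values, which sum to 1 total in each library, entered no test. The strand setting of the counting is not given in the sources used here.

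The test between groups was edgeR 4.0.16 in R 4.3.3, with TMM, filterByExpr with a minimum count of 10, robust quasi-likelihood test, and Benjamini-Hochberg adjustment over 16966 genes. Normalization factors were 0.978 to 1.02 and the biological coefficient of variation 8.04%. The SE was taken from the log2 fold change and the F statistic. It thus includes the spread between libraries, while the floor of 3 counts covers counting error only. Ratios of pairs used exact 2-sided permutation tests, which cannot go below p = 0.1. DESeq2 1.42.0, upper-quartile factors, no filter, limma 3.58.1 on FPKM values (log2 with 1 or 0.1 added), a replicate block, other count floors, pairs without overlap, a threshold of 0.01 and leaving out each library were tried. The edgeR step was tested on simulated data. Strands came from RefSeq (166 genes) and GENCODE (28).

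The genes named are the called members (all 8 rises, and the falls by size), the 6 highest FPKM, the lists of studied antisense RNAs and YAP/TAZ targets, pairs with both genes called, the genes nearest the floor, and their partners. The members and lists were chosen with earlier results of these data known. No value column was left without a sample.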

Additional observations from a re-analysis of the deposited data

How the results depend on the processing

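DESeq2 called 26 antisense genes and upper-quartile factors 26, in both cases the same genes, and without a filter 25 of them were called. The call lost without a filter was that of FBXL19-AS1. With limma on log2(FPKM + 1), 23 antisense genes were called (21 of the 26), 5 pairs had both genes called and the median change was -0.0327. With log2(FPKM + 0.1) there were 22 (19 of the 26) and 4 pairs. The calls lost with log2(FPKM + 0.1) were those of SH3BP5-AS1, FBXL19-AS1, FEZF1-AS1, SLCO4A1-AS1, DBH-AS1, NOP14-AS1 and EMC3-AS1. All 26 kept their direction in all 12 refits. Leaving out 1 library gave 1937 to 5928 genes, 8 to 39 antisense genes, 26 to 73 partners, 0 to 20 pairs with both called and a median of -0.109 to -0.0347; the highest counts came without TAZ-siRNA replicate 3 and the lowest without control-siRNA replicate 2. Other floors change how many genes are on the list, so the counts called at them cannot be compared as shares. A floor of 10 counts gave 31 antisense genes, 82 partners and 12 pairs. A floor of 100 counts gave 14 antisense genes, 22 partners and 7 pairs. Pairs without overlapping spans gave 6, 12 and 2, with a correlation of -0.0776, of opposite sign to the 0.101 over all pairs. At an adjusted p under 0.01 there were 1720 genes, 5 antisense genes, 25 partners and 0 pairs, the last against 11 at 0.05.

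The correlations of deviations of same-numbered libraries were -0.0173, 0.00865 and 0.0698, within those of differently numbered libraries (-0.0951 to 0.1). With 3 libraries in each group this check cannot settle whether the replicate numbers pair the libraries. With the replicate block, edgeR called 5122 genes (3749 without it), 30 antisense genes (all 26 among them), 67 partners and 15 pairs.

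All directions that turned among single genes were those of genes that were not called. Without 1 library, log2 values ran from -0.109 to 0.0649 for TMEM132D-AS1, -0.219 to 0.0182 for KTN1-AS1, -0.185 to 0.0841 for VIM-AS1, -0.114 to 0.17 for MCM3AP-AS1, -0.0536 to 0.165 for ADAMTS9-AS2, -0.131 to 0.324 for TMPO-AS1, -0.122 to 0.269 for CAVIN2-AS1, -0.0396 to 0.352 for SRP54-AS1, -0.0924 to 0.146 for FOXD3-AS1, -0.146 to 0.388 for MYLK-AS1, -0.0009 to 0.173 for SH3BP5, -0.063 to 0.035 for PDCD4 and -0.104 to 0.029 for MCM3AP. Of the 24 antisense to partner log2 ratios of called antisense genes, 2 turned, and ran from -0.162 to 0.128 for FRMD6-AS1 and -0.0936 to 0.00802 for NOP14-AS1. CAVIN2-AS1 was at -0.0014 and -0.0114 with limma on log2(FPKM + 1) and log2(FPKM + 0.1). The cause was not tested. At the median of 120 counts the precision of single antisense genes was limited, with a median SE of 0.17 against 0.0844 over all genes.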

Other observations

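Below the floor of 30 counts, 202 further antisense genes were tested and 11 were called (5.45%), 3 higher and 8 lower. Over all genes tested 22.1% were called, 11.9% higher and 10.2% lower. Of the 11, 3 passed the filter on low counts through the control-siRNA libraries alone (PLCE1-AS1, YTHDF3-AS1 and PGM5P3-AS1) and so had to differ, which makes their calls a description. The widest gap was that of PLCE1-AS1, named after its values were seen, antisense to the gene of phospholipase C epsilon, with 27, 33 and 40 counts in the control-siRNA libraries and 0 in each TAZ-siRNA library. Against a floor of 3 counts per library (0.0519 CPM) its mean of 0.586 CPM was at least 11.3-fold lower after knockdown, while PLCE1 gave a log2 fold change of 0.33 (SE 0.12, edgeR adjusted p = 0.075). The called genes that follow were also named after their values were seen. PRKG1-AS1 fell from 54, 33 and 24 counts to 13, 6 and 17, and EP300-AS1 from 38, 39 and 34 counts to 18, 13 and 17. TMEM51-AS1 rose from 21, 30 and 28 counts to 60, 62 and 59. PRKAG2-AS1, with 74, 56 and 43 counts in controls and 42, 30 and 25 after knockdown, fell together with PRKAG2 (log2 -0.38, SE 0.0557, edgeR adjusted p = 0.0012), a regulatory subunit gene of AMP-activated kinase.

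TGFB2-AS1, antisense to the YAP/TAZ target TGFB2, had 21, 27 and 25 counts in controls and 13, 19 and 11 after knockdown (log2 -0.75, edgeR adjusted p = 0.19), while TGFB2 fell by 1.35 on the log2 scale (edgeR adjusted p = 1.4e-05).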
